A study of Mus musculus with 7 samples.

Results

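Notch ligands, receptors and fringe enzymes were followed in the embryonic mouse dorsal forebrain through 10 genes chosen by symbol: the ligand genes Dll1, Dll3, Jag1 and Jag2, the receptor genes Notch1, Notch2 and Notch3, the fringe genes Lfng and Mfng, and Rbpj. All 10 were found among the 21862 genes of the deposited matrix. Cells of CD-1 mouse embryos were profiled with Drop-seq, a droplet method that tags mRNA with a cell barcode and with a random tag per molecule (unique molecular identifier, UMI). The 7 samples covered 6 embryonic days between E10.5 and E18.5. E14.5 was sampled 2 times and each other day a single time. The labels name no genotype other than the CD-1 strain, no treatment, and not how many embryos went into a sample, so that p-values over samples may in part measure technical spread.

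Notch signalling passes between neighbouring cells: a ligand on the sending cell binds a receptor on the receiving cell, the receptor is cut, and its inner fragment enters the nucleus and joins RBPJ to switch on targets such as the Hes genes. In the developing cortex, apical progenitors (radial glia), which divide at the ventricle, are known to be kept as progenitors by Notch, and the cells that leave that state, the Eomes-expressing intermediate progenitors and newborn neurons, are known to carry Dll1. DLL1, JAG1 and JAG2 activate receptors of a neighbouring cell, whereas DLL3 does not and acts in the cell that makes it. LFNG and MFNG are Golgi enzymes that add sugar to the receptors and change their response to the ligands.

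The start regions of Dll1, Dll3 and Lfng are shown because these ligand and fringe genes passed a test between the progenitor gates described below. Sequences are from RefSeq on build GRCm38.p6, from 250 bases before to 50 bases after an annotated start, on the strand of the gene. Capitals mark 2 motifs searched on both strands: CANNTG, the E-box that proneural factors such as NEUROG2 bind, and TGGGAA (or its reverse complement TTCCCA), a core of the site that RBPJ binds.

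Dll1, chr17:15376883-15377182, minus strand: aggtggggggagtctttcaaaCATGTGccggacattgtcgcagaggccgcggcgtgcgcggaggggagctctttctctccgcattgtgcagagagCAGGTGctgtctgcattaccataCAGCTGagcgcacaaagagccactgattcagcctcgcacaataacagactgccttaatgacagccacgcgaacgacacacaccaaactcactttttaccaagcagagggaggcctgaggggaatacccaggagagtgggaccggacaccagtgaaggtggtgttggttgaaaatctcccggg

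Dll3, chr7:28301736-28302035, minus strand: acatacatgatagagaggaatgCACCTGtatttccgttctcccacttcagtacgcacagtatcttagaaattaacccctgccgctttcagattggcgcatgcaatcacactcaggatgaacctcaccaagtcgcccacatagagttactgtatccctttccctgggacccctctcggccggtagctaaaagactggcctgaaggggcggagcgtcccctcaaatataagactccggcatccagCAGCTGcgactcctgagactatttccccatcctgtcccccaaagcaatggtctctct

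Lfng, chr5:140607091-140607390, plus strand: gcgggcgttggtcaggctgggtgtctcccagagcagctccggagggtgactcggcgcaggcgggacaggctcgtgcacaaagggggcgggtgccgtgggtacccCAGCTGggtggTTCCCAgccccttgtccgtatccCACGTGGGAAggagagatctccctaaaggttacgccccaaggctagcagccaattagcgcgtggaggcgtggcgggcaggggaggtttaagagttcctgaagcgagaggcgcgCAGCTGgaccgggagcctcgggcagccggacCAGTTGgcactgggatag

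The Dll1 window shown held 3 E-boxes and no TGGGAA, the Dll3 window 2 E-boxes and no TGGGAA, and the Lfng window 4 E-boxes and 2 matches to TGGGAA. The window of another annotated Dll1 start (chr17:15375774-15376073), not shown, held 1 E-box and no TGGGAA. Among all 32817 mouse windows of this length, 72.3% held at least 1 E-box, 39.7% at least 2 and 17.6% at least 3, and 25.6% held TGGGAA at least once and 3.79% at least 2 times. Windows were matched for 9 of the 10 genes, all but Mfng, and those of Notch1, Notch2, Notch3 and Jag2 held neither motif.

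The matrix held 10261 cells in 12 libraries with 27776936 UMIs, between 387 and 3235 cells per sample, and a median of 1645 to 3352 UMIs per cell. The authors gave each cell 1 of 19 cluster numbers, here called labels. From marker genes, labels 1, 3, 6, 10 and 12 were apical progenitor-like (3403 cells), labels 4 and 7 intermediate progenitor-like (1316), labels 2, 5, 9 and 11 projection neuron-like (2599), label 8 interneuron-like (436) and label 13 Cajal-Retzius-like (220). Label 0 (1812 cells) was led by Unc5d, Pcp4, Klhl35 and Slc17a6, had 6 markers of intermediate progenitors and 4 of projection neurons, and was left unnamed. Label 12 had 15 apical progenitor markers but was led by Olig1, Tnc and Olig2, and its share of that class was 0% (E10.5 and E12.5), 2.0% and 9.3% (E14.5), 23.3% (E15.5), 58.3% (E16.5) and 83.4% (E18.5). Label 6 made up 90.8% of the apical progenitors at E10.5. Within 5 libraries, 518 barcodes fell into 151 families that shared their first 11 bases, and 4 barcodes occurred in several libraries. The members were sparse, with 1720 UMIs for Mfng, 1694 for Notch1, 932 for Rbpj, 842 for Dll1, 612 for Dll3, 602 for Lfng, 472 for Notch2, 379 for Jag1, 212 for Notch3 and 104 for Jag2. Levels below are therefore counts scaled to a total of 1000000 UMIs (CPM), summed over the cells of a class in a sample with at least 20 such cells. Capture differs between genes, so that levels are compared between cells and not between genes, except in sums that are named as such. The labels are clusters of these same cells, and the members may have been among the genes used to build them. Differences between labels are therefore given without a test.

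Dll1, the ligand that activates Notch on neighbouring cells, was highest in intermediate progenitors. Its level there was 421 CPM at E10.5, 123 (E12.5), 96.7 and 125 (E14.5), 52.8 (E15.5), 28.5 (E16.5) and 26.5 (E18.5). In apical progenitors it was 33.0 (E10.5), 13.1 (E12.5), 13.4 and 23.4 (E14.5), 9.25 (E15.5), 3.67 (E16.5) and 36.3 (E18.5). The level was higher in intermediate than in apical progenitors in 6 of 7 samples, with E18.5 the exception. In intermediate progenitors the levels at E16.5 (31 cells) and E18.5 (46 cells) came from 3 Dll1 UMIs each. The order at E18.5 thus rests on few counts. The means were 125 ± 137 in intermediate progenitors and 18.9 ± 12.3 in apical progenitors (SD, n = 7 each). Cajal-Retzius cells, the early Reln-expressing neurons of the cortical surface, came next with 48.5 ± 62.0 (SD, n = 5), then hem-like label 14, led by Wnt8b, Rspo2 and Rspo1 (213 cells), with 58.6 at E10.5 and 31.9 in E14.5 sample 1, label 0 with 27.2 ± 26.9 (n = 6), interneurons with 22.6 ± 31.3 (n = 7), apical progenitors, and projection neurons with 9.94 ± 4.95 (n = 6). The ranges of neighbours in this order overlapped at each step. The Cajal-Retzius mean rested on E10.5, with 157, and the other 4 samples lay between 9.31 and 41.8, while label 0 had no E10.5 sample with at least 20 cells. The 2 samples of E14.5 show how far samples of 1 stage differ: interneurons had 0 of 122482 UMIs in sample 1, which allows up to 24.5 CPM, and 66.8 CPM from 6 UMIs in sample 2. No Dll1 UMI was found in mesenchymal-like, endothelial-like, microglia-like or mural-like cells, which allows a level of up to 4.66 CPM in the 644465 UMIs of mesenchymal-like cells and up to 10.8 in the 276775 UMIs of endothelial-like cells.

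Dll3, the ligand that does not activate receptors on other cells, lay in much the same classes as Dll1, except in hem-like label 14. With samples pooled, that label had 4.30 CPM of Dll3 (4 UMIs) and 56.9 of Dll1 (53 UMIs). Dll3 averaged 75.4 ± 65.0 in intermediate progenitors and 12.4 ± 20.6 in apical progenitors (SD, n = 7 each), with 64.0 ± 76.0 in Cajal-Retzius cells (n = 5), 34.4 ± 64.3 in interneurons (n = 7), 31.3 ± 31.1 in label 0 (n = 6) and 12.2 ± 6.78 in projection neurons (n = 6). At E10.5 the levels were 214 in intermediate progenitors, 193 in Cajal-Retzius cells and 179 in interneurons, against 6.67 in apical progenitors. At E18.5 the order of the progenitors was turned round, with 44.2 in intermediate progenitors and 57.7 in apical progenitors, where label 12 alone had 66.5.

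Jag1, another activating ligand, was spread differently. Its level was 5.34 ± 7.11 in intermediate progenitors and 18.2 ± 7.95 in apical progenitors (SD, n = 7 each), and lower in intermediate progenitors in 5 of 7 samples. Cajal-Retzius cells had 17.8 ± 13 (n = 5), and projection neurons had 3.1 ± 2.0 (n = 6). The highest levels were outside the neural classes. Endothelial-like and mural-like cells were pooled over samples because few were found. They had 90.3 CPM (25 UMIs, exact Poisson 95% interval 58.5 to 133) and 62.6 (4 UMIs, 17 to 160.2). Mesenchymal-like cells, all 142 of them from the single E10.5 sample, had 69.8 (45 UMIs, 50.9 to 93.4). These intervals cover counting error only. Jag2, which also activates receptors, had 104 UMIs in all, of which 61 (58.7%) were in projection neurons. Its level was 18.8 ± 7.17 in Cajal-Retzius cells (SD, n = 5) and 7.04 ± 1.57 in projection neurons (n = 6), but 1.55 ± 2.90 in intermediate progenitors and 0.681 ± 0.908 in apical progenitors (n = 7 each). The Cajal-Retzius mean came from 13 UMIs, between 1 and 5 per sample. Endothelial-like cells, pooled over samples, had 36.1 CPM of Jag2 (10 UMIs, exact Poisson 95% interval 17.3 to 66.4). In projection neurons all 6 samples lay between 5.43 and 9.54, and in apical progenitors the 4 samples with a Jag2 UMI lay at or below 2.11. The other 3 had none, which allows up to 7.8 (E14.5 sample 2), 11 (E16.5) and 4.95 (E18.5), values that reach into or near the projection neuron range.

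Notch1, the most detected receptor, was high in both kinds of progenitor. Intermediate progenitors had 175 (E10.5), 93.0 (E12.5), 95.5 and 90.8 (E14.5), 63.9 (E15.5), 114 (E16.5) and 97.3 (E18.5). Apical progenitors had 95.8 (E10.5), 122 (E12.5), 161 and 119.6 (E14.5), 196 (E15.5), 110.1 (E16.5) and 137 (E18.5). The 2 ranges overlapped, and the means were 104 ± 34.4 in intermediate progenitors and 134 ± 34.1 in apical progenitors (SD, n = 7 each). Every sample of both classes lay above the highest value of the Cajal-Retzius cells (31.4), the interneurons (28.2), label 0 (10.2) and the projection neurons (4.07). Endothelial-like cells also carried Notch1, at 166 CPM (46 UMIs, exact Poisson 95% interval 122 to 222).

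Notch2 and Notch3 separated the progenitors more than Notch1 did. Notch2 was 9.25 ± 8.0 in intermediate progenitors and 53.0 ± 27.7 in apical progenitors (SD, n = 7 each), lower in intermediate progenitors in 6 of 7 samples. The exception was E10.5, with 7.93 in intermediate progenitors and 7.02 in apical progenitors, and in later samples apical progenitors had between 34.6 and 88.4. Notch3 was 2.22 ± 3.07 in intermediate progenitors and 15.8 ± 4.09 in apical progenitors (n = 7 each), and the highest of the intermediate progenitor samples (8.64) lay below the lowest of the apical ones (10.4). In 3 of the intermediate progenitor samples no Notch3 UMI was found, which allows up to 23.8 (E10.5), 28.5 (E16.5) and 26.5 (E18.5), so that a separation of all samples was not detectable at this depth. Mural-like cells, the pericytes and smooth muscle cells of vessels in which Notch3 is a known marker, had 125 CPM from 8 UMIs (exact Poisson 95% interval 54.0 to 247).

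The fringe genes lay in opposite progenitors. Lfng was 6.58 ± 5.96 in intermediate progenitors and 68.2 ± 25.3 in apical progenitors (SD, n = 7 each), and no sample overlapped: intermediate progenitors lay between 0 and 15.9, apical progenitors between 28.8 and 109. Hem-like label 14 had Lfng at 40.3 at E10.5 and 112, from 7 UMIs, in E14.5 sample 1. Mfng was 267 ± 111 in intermediate progenitors and 19.9 ± 15.3 in apical progenitors (n = 7 each), again with no overlap, since the lowest intermediate progenitor sample (150.3) lay above the highest apical one (41.4). Mfng stood among the 10 leading genes of labels 4 and 7, so that this class may in part have been built on it. Mfng was also found in label 0, at 85.9 ± 36.4 (n = 6), and in Cajal-Retzius cells, at 64.0 ± 78.4 (n = 5). Lfng had 0.667 ± 1.05 and 1.80 ± 4.01 there. The Cajal-Retzius mean of Mfng rested on E10.5, with 202 CPM (45 UMIs), and the other samples had between 1 and 6 UMIs each. Of the UMIs of both fringe genes, the median share of Mfng over samples was 97.5% in intermediate progenitors, 100% in label 0 and 14.5% in apical progenitors. In apical progenitors that share was 59.0% at E10.5 and between 0% and 42.4% in the later samples.

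Rbpj, the DNA-binding partner that all Notch receptors share, was found in every class. It was 64.9 ± 15.9 in intermediate progenitors and 40.1 ± 18.7 in apical progenitors (SD, n = 7 each), higher in intermediate progenitors in 6 of 7 samples and with overlapping ranges. Label 0 had 52.0 ± 6.10 (n = 6), interneurons 30.5 ± 16.3 (n = 7), projection neurons 24.0 ± 9.80 (n = 6) and Cajal-Retzius cells 23.0 ± 11.7 (n = 5). The 2 samples of E14.5 had 26.7 and 75.4 in apical progenitors, a gap as wide as most of those between classes.

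**Figure D1:**
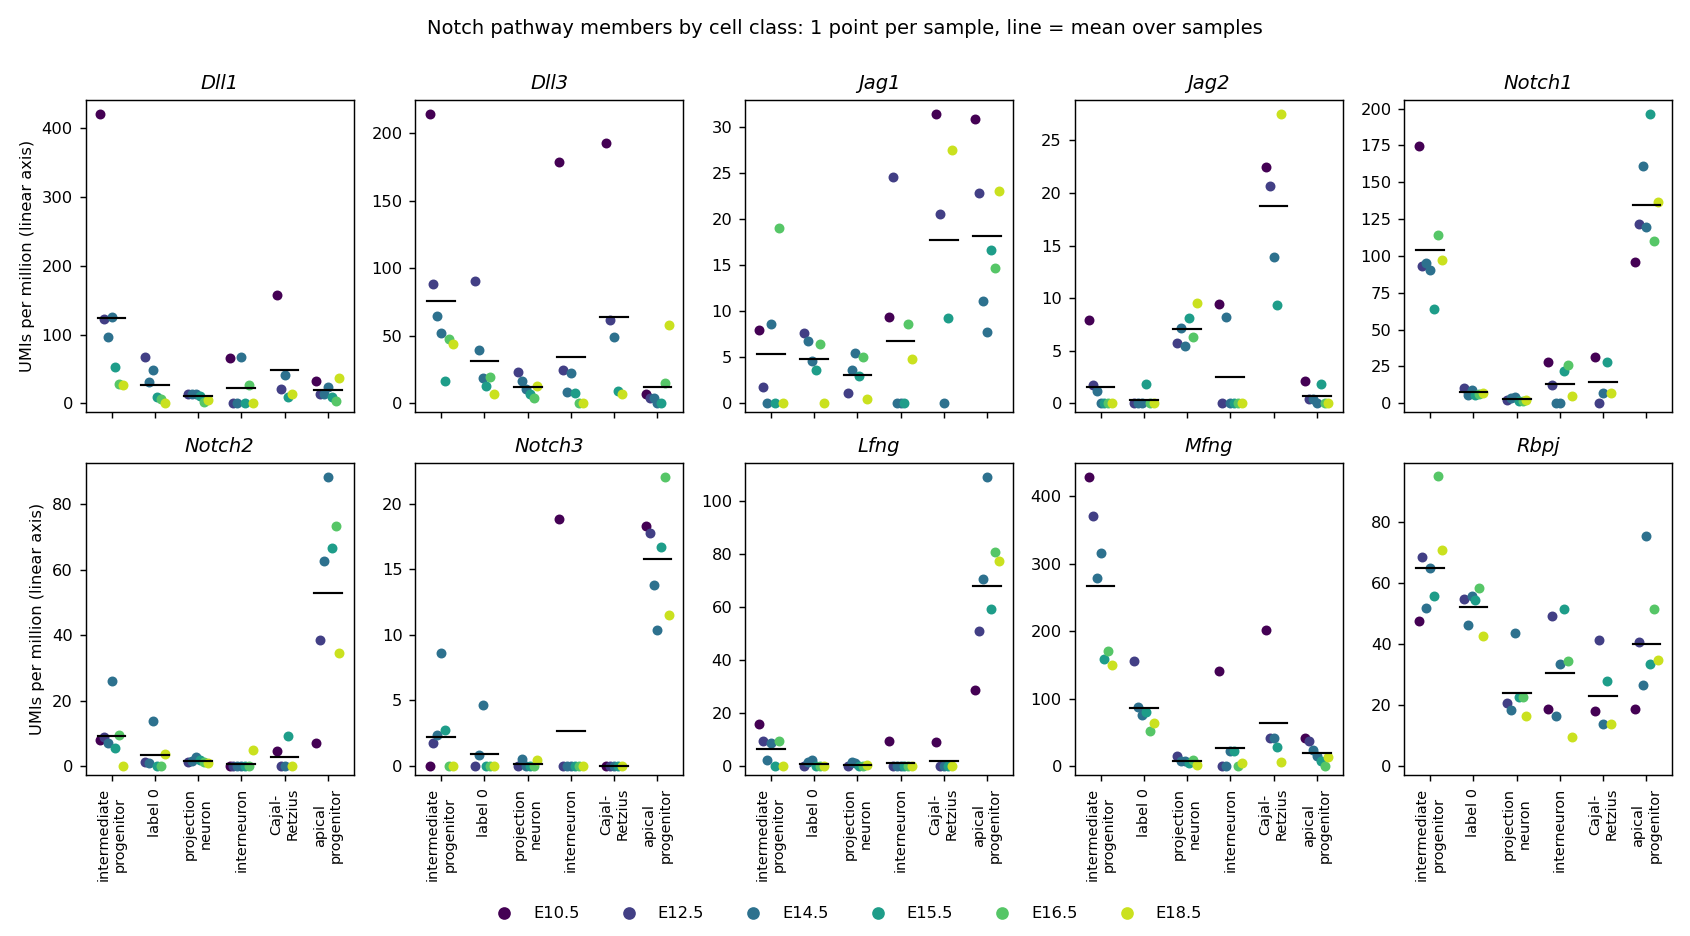
Level of each of the 10 genes (CPM, linear axis) in 6 cell classes. Points are samples coloured by stage and bars are means over samples. Of these 6 classes Lfng, Notch2 and Notch3 have the highest mean in apical progenitors, and Dll1, Dll3 and Mfng in intermediate progenitors, with the E10.5 sample of intermediate progenitors at the top for Dll1 (421) and Mfng (428).

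Set against each other, the sums of activating ligands (Dll1, Jag1 and Jag2) and of receptors (Notch1, Notch2 and Notch3) ordered the classes by how far receptors exceeded ligands. In apical progenitors receptors exceeded ligands in 7 of 7 samples, with a median over samples of 205 receptor CPM and 31.2 ligand CPM. In intermediate progenitors both were present, with a median of 105 for receptors and 97.9 for ligands, and receptors exceeded ligands in 4 of 7 samples. Those 4 were E14.5 sample 1, E15.5, E16.5 and E18.5, so that ligands were ahead at E10.5 (436 ligand CPM and 182 receptor CPM), E12.5 and in E14.5 sample 2. In label 0 ligands were ahead in 5 of 6 samples, with medians of 9.13 for receptors and 26.2 for ligands. In projection neurons ligands were ahead in 6 of 6 samples, with medians of 3.75 for receptors and 21.3 for ligands. In Cajal-Retzius cells receptors exceeded ligands in 1 of 5 samples and in interneurons in 2 of 7. Interneuron sums rested on at most 9 ligand and 5 receptor UMIs per sample. Some sums of other classes were as thin. The Cajal-Retzius sample with receptors ahead, E15.5, had 3 ligand and 4 receptor UMIs. Label 0 had 2 ligand UMIs and 1 receptor UMI at E16.5. At E18.5, where its receptors were ahead, it had 0 ligand and 3 receptor UMIs. Sums of UMIs over genes take each gene as captured, so that the point where the sums are equal depends on capture.

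**Figure D2:**
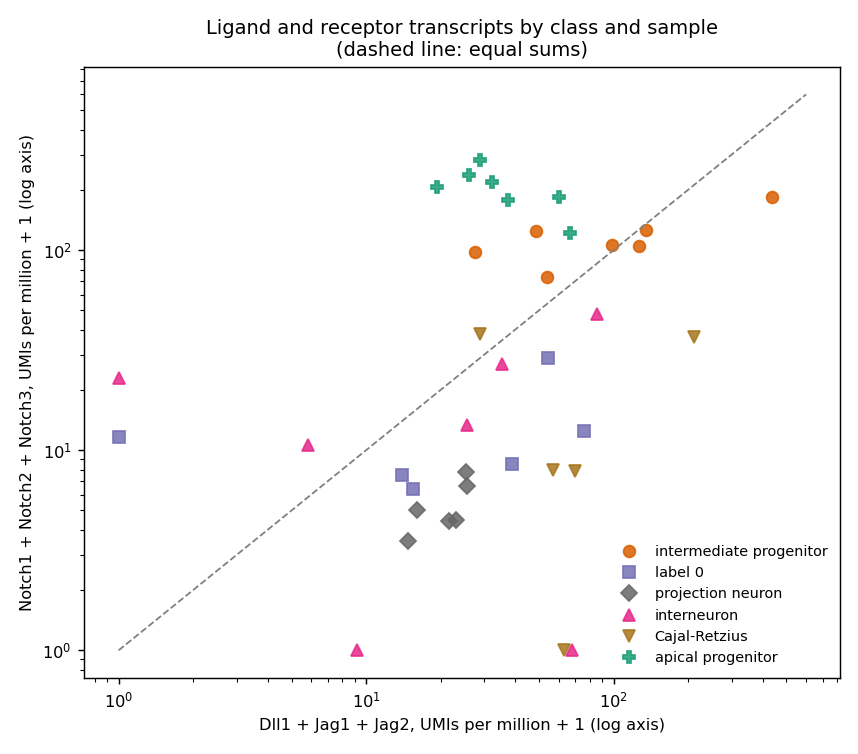
Receptor UMIs (Notch1, Notch2 and Notch3) against activating ligand UMIs (Dll1, Jag1 and Jag2), CPM + 1, on log axes. Each point is 1 class in 1 sample and the dashed line marks equal sums. Apical progenitors lie above the line in 7 of 7 samples, projection neurons below it in 6 of 6, and intermediate progenitors on both sides.

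The share of a gene's UMIs that a class supplied also depends on how many cells of that class were captured. Over all samples together, intermediate progenitors held 39.1% of Dll1, 34.5% of Dll3 and 51.0% of Mfng UMIs, and apical progenitors held 23.4%, 12.6% and 17% of the same genes. Apical progenitors held 72.8% of Notch1, 80.1% of Notch2, 74.5% of Notch3 and 87.2% of Lfng UMIs, against 16.3%, 5.51%, 3.30% and 2.99% in intermediate progenitors. For Dll1 the share of the intermediate progenitors was 57.9% at E12.5 but 8.11% (3 UMIs) at E18.5, when apical progenitors held 59.5% of it. Label 0 and projection neurons, which held 14% and 9.5% of Dll1, held 22.7% and 16.5% of Dll3.

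**Figure D3:**
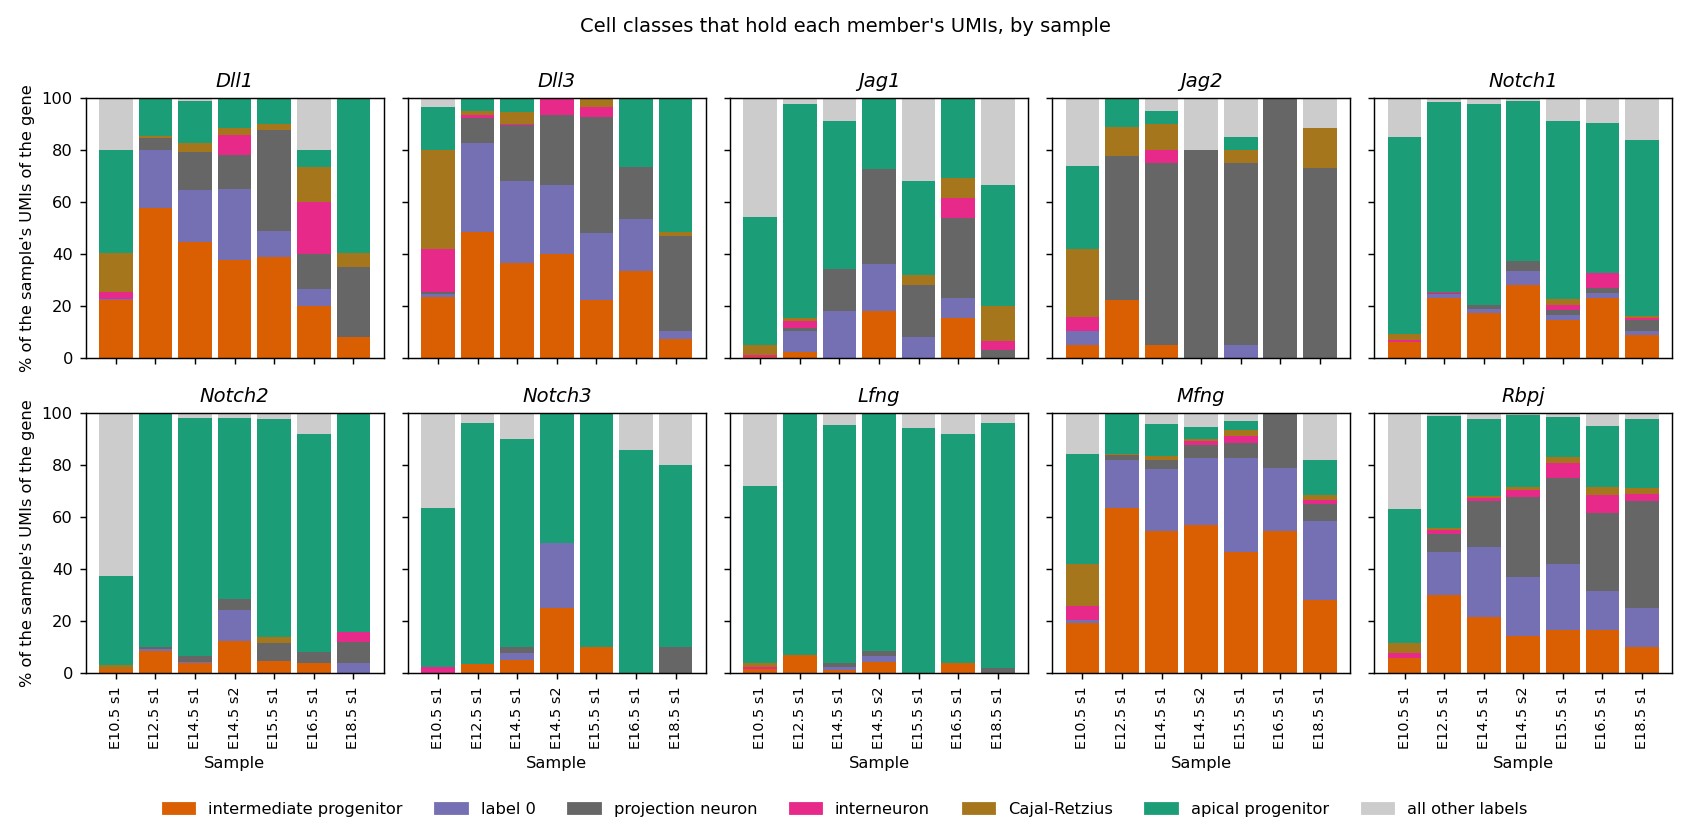
Share of each gene's UMIs (percent of the UMIs of that gene in the sample) held by 6 cell classes and by all other labels, in 7 samples ordered by stage. Apical progenitors hold most of Notch1, Notch2, Notch3 and Lfng in nearly all samples, and the share of intermediate progenitors in Dll1 is 57.9% at E12.5 and 8.11% (3 UMIs) at E18.5.

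Change over the stages was tested as a slope on embryonic day in each class with edgeR's quasi-likelihood test and Benjamini-Hochberg adjustment over all tested genes, so that a slope of -1 on the log2 scale is a halving per day. Dll1 fell in intermediate progenitors and, with Dll3, in label 0. In intermediate progenitors (7 samples) the slope of Dll1 was -0.51 per day (SE 0.07, adjusted p = 0.00216), and it was the only 1 of 5 tested members to pass, where 1.42% of 5505 genes passed, 0.708% downward and 0.708% upward. Dll3 had -0.39 (SE 0.10, adjusted p = 0.0585) and Mfng -0.22 (SE 0.05, adjusted p = 0.0510), and neither passed. Notch1 had -0.09 (SE 0.07, adjusted p = 0.585). The median slope over the 5 members was -0.22, and that over all tested genes 0.0018. The Dll1 slope was -0.39 (adjusted p = 0.142) without E10.5, which had 33 intermediate progenitors, -0.22 (adjusted p = 0.368) in Eomes-gated cells, defined below, and -0.34 (adjusted p = 0.710) in cells with at most 5% mitochondrial UMIs, which left 4 samples.

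Label 7, the intermediate progenitor label with mitosis genes such as Sgol2, Kif2c and Nusap1 among its leading genes, made up 75.8% of the class at E10.5, 56.3% (E12.5), 19.7% and 13.9% (E14.5), 35.3% (E15.5), 12.9% (E16.5) and 34.8% (E18.5). Within label 4, Dll1 was 91.1 (E12.5), 101 and 142 (E14.5), 68.5 (E15.5), 33.0 (E16.5) and 48.4 (E18.5). Within label 7 it was 388 (E10.5), 138 (E12.5), 82.5 in E14.5 sample 1 and 28.4 (E15.5), the samples with at least 20 such cells. The lowest values stood at late stages in both labels but came from few UMIs. Label 4 had 3 Dll1 UMIs at each of E16.5 and E18.5, and label 7 had 4 at E15.5. In label 4 alone, which had at least 20 cells in 6 samples and fewer at E10.5, the slope of Dll1 was -0.18 (adjusted p = 0.625), a setting added after the data were seen. The median mitochondrial share was 2.25% to 5.41% in samples up to E14.5 and 6.80% to 7.53% from E15.5 on, and its part in the slopes was measured only by that limit on cells.

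In label 0 (6 samples, E12.5 to E18.5) Dll1 was 67.6 (E12.5), 31.1 and 48.7 (E14.5), 9.04 (E15.5), 6.49 (E16.5) and 0 (E18.5), where 0 of 280605 UMIs allows up to 10.7 CPM. Its slope was -0.80 per day (SE 0.15, adjusted p = 0.00686). Dll3 was 90.6 (E12.5), 39.5 and 18.5 (E14.5), 12.7 (E15.5), 19.5 (E16.5) and 7.13 (E18.5), with a slope of -0.70 (SE 0.13, adjusted p = 0.00594). These were 2 of 4 tested members, both downward, where 1.46% of 7347 genes passed, 0.599% downward and 0.857% upward. Mfng (-0.23, SE 0.07, adjusted p = 0.126) and Rbpj (-0.03, SE 0.08, adjusted p = 0.922) did not pass. Without E18.5 the slope of Dll1 was -0.71 (adjusted p = 0.0587), and in cells with at most 5% mitochondrial UMIs (4 samples) it was -0.38 (adjusted p = 0.758) and that of Dll3 -0.77 (adjusted p = 0.143).

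In apical progenitors none of 8 tested members passed, where 9.31% of 8392 genes did, 6.39% upward and 2.92% downward. At an unadjusted p under 0.05 there were 3, and DESeq2 called 2, Lfng upward and Mfng downward. Mfng had a slope of -0.32 (SE 0.09, adjusted p = 0.0503) and Lfng 0.18 (SE 0.06, adjusted p = 0.0766). Mfng was 41.4 (E10.5), 37.8 (E12.5), 23.6 and 15.6 (E14.5), 7.40 (E15.5), 0 (E16.5, which allows up to 11) and 13.2 (E18.5), whereas Lfng was 28.8 (E10.5), 51.2 (E12.5), 70.8 and 109 (E14.5), 59.2 (E15.5), 80.7 (E16.5) and 77.5 (E18.5). Notch2 had 0.27 (SE 0.12, adjusted p = 0.188). It passed with E18.5 left out (0.51, adjusted p = 0.00724) and with label 12 left out (0.40, adjusted p = 0.0398), but was 0.011 (adjusted p = 0.972) without E10.5 and 0.09 (adjusted p = 0.609) without label 6. In projection neurons (6 samples) none of 5 tested members passed, where 3.08% of 9712 genes did, 2.05% upward and 1.03% downward. At an unadjusted p under 0.05 there were 2, and DESeq2 called none.

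The stage slopes of intermediate and apical progenitors were compared directly as an interaction of class and day, with the sample as a block. Dll3 (difference of slopes -0.62 per day, SE 0.12, adjusted p = 0.00893) and Dll1 (-0.38, SE 0.09, adjusted p = 0.0395) had lower slopes in intermediate than in apical progenitors, 2 of 8 tested members both below 0, where 0.807% of 8546 genes passed, 0.597% downward and 0.211% upward. The differences of Notch1 (-0.19, SE 0.09, adjusted p = 0.445), Lfng (-0.82, SE 0.25, adjusted p = 0.155) and Mfng (0.11, SE 0.08, adjusted p = 0.766) did not pass. Neither Dll1 nor Dll3 passed without E18.5, where apical progenitors had 36.3 of Dll1 and 57.7 of Dll3: the differences were then -0.23 for Dll1 (adjusted p = 0.445) and -0.32 for Dll3 (adjusted p = 0.588). Neither passed with label 12 left out of the apical progenitors, at -0.26 for Dll1 (adjusted p = 0.289) and -0.20 for Dll3 (adjusted p = 0.762), a setting added after the data were seen. With label 4 as the only intermediate progenitors, also added later, Dll3 passed (-0.77, adjusted p = 0.00464) and Dll1 did not (-0.32, adjusted p = 0.521). Dll3 had -0.62 (adjusted p = 0.0719) without E12.5, and both had an adjusted p of 0.998 in cells with at most 5% mitochondrial UMIs (4 samples). Dll1 also missed the threshold without 5 other samples taken out in turn (adjusted p between 0.0527 and 0.133), without doublets (0.0670) and without 1 library of E14.5 whose sample was inferred from its name (0.0775).

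**Figure D4:**
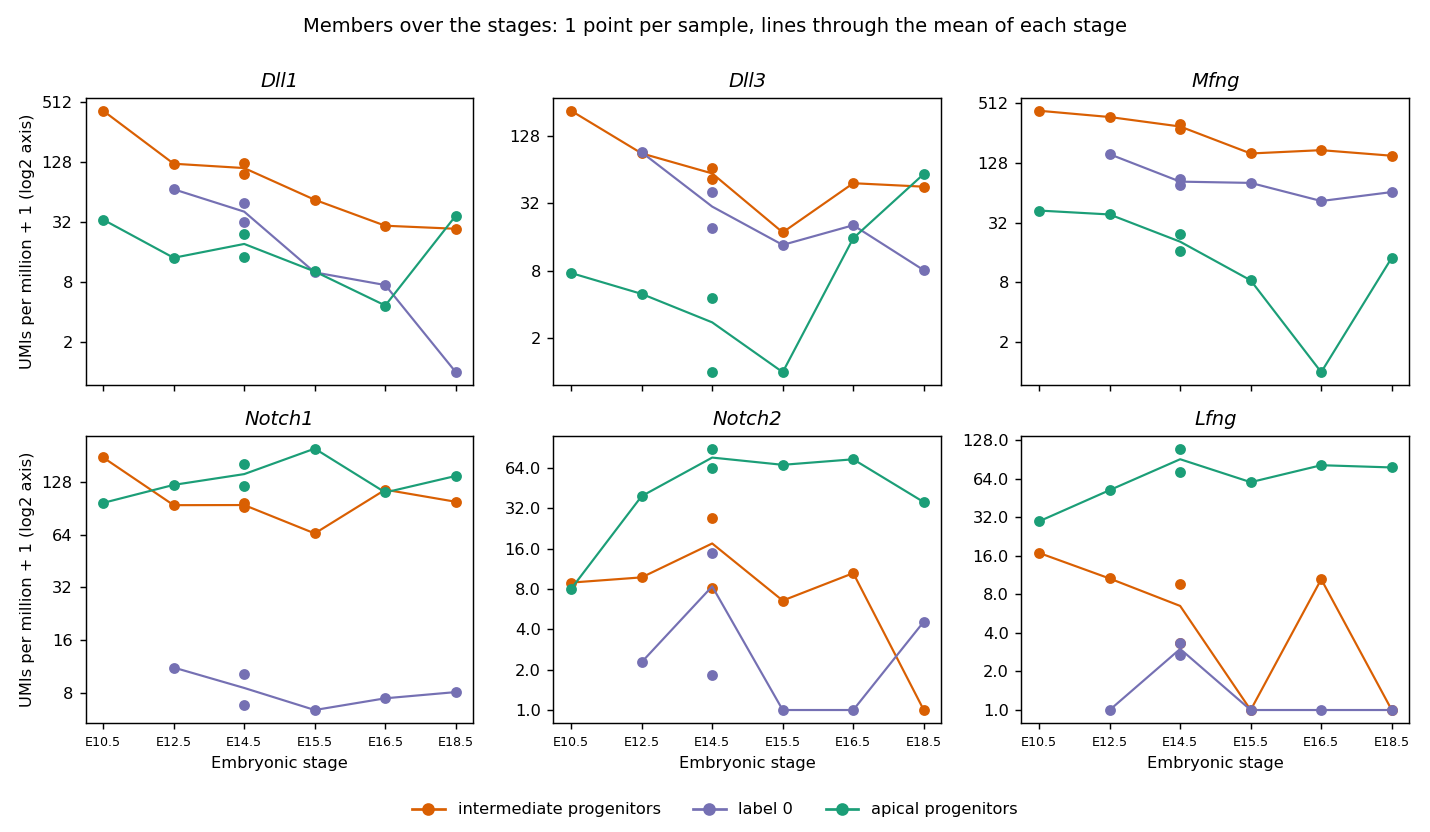
Levels of 6 genes (CPM + 1, log2 axis) by stage in intermediate progenitors, label 0 and apical progenitors. Points are samples and lines join the mean of each stage. Dll1 in intermediate progenitors is 421 at E10.5 and 26.5 (3 UMIs) at E18.5, and apical progenitors at E18.5 (36.3) lie above them.

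Because the labels may have used the members, cells were also grouped by gates that use none of them. Eomes-gated cells had a UMI of Eomes and none of Neurod2, Neurod6 or 4 interneuron genes. Neuron-gated cells had at least 2 UMIs of Neurod2, Neurod6 and Tbr1 and none of Eomes, Sox2 or Pax6. Apical-gated cells had Sox2 or Pax6 and none of the Eomes or neuronal genes. The 413 Eomes-gated cells included 243 labelled as intermediate progenitors, 87 as apical progenitors and 46 as Cajal-Retzius cells, and at E10.5 the Cajal-Retzius cells were 22 of 52. Of the 3567 neuron-gated cells, 2266 were labelled as projection neurons and 1169 as label 0. Gates were compared within samples by edgeR with the sample as a block.

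Mfng, Dll1 and Dll3 were higher and Lfng lower in Eomes-gated than in apical-gated cells. In the 5 samples with at least 20 cells per gate, which leaves out E14.5 sample 2 and E16.5, Dll1 was 168 (E10.5), 92.7 (E12.5), 91.9 (E14.5), 84.5 (E15.5) and 39.8 (E18.5) in Eomes-gated cells. In apical-gated cells of the same samples it was 30.4, 11.7, 6.78, 2.47 and 39.9. The gated groups were thus apart in 4 samples and level at E18.5, where the Eomes-gated value came from 3 UMIs. The log2 fold change was 2.70 (SE 0.39, adjusted p = 9.61e-05) for Dll1, 3.93 (SE 0.84, adjusted p = 0.00466) for Dll3 and 3.39 (SE 0.26, adjusted p = 4.28e-08) for Mfng. Lfng had -1.54 (SE 0.45, adjusted p = 0.0342). These were 4 of 7 tested members and also passed with the Cajal-Retzius cells left out of the gate, 3 upward and 1 downward, where 10.4% of 7256 genes passed, 5.71% upward and 4.71% downward. Dll3 at E18.5 ran the other way, with 13.3 in Eomes-gated cells (1 UMI) and 45.2 in apical-gated cells, and its fold change was 2.71 (adjusted p = 0.0698) without E10.5. Lfng was not lower at E10.5, with 30.5 in Eomes-gated cells (6 UMIs) and 28.4 in apical-gated cells, and in the other 4 samples it was at most 32.1 in Eomes-gated cells and at least 54.4 in apical-gated cells. It missed the threshold without 4 of the 5 samples in turn (adjusted p between 0.0570 and 0.287) and with DESeq2 (0.0563).

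No receptor passed between these gates. Notch1 was 96.7, 125, 157, 109 and 119 in Eomes-gated cells and 79.6, 121, 149, 166 and 128 in apical-gated cells of the same samples, with a log2 fold change of -0.02 (SE 0.20, adjusted p = 0.972). Notch2 had -1.0 (SE 0.40, adjusted p = 0.121) and Rbpj 0.36 (SE 0.33, adjusted p = 0.570). A fold change that misses the threshold does not show equal levels. The Dll1 level was thus raised in Eomes-gated cells, while that of Notch1 differed from apical-gated cells by less than its SE.

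Neuron-gated cells had far less of the receptors and of Lfng. Over 6 samples (E12.5 to E18.5), Notch1 was at most 8.38 in neuron-gated cells, against 91.8 to 166 in apical-gated cells, with a log2 fold change of -4.84 (SE 0.32, adjusted p = 3.1e-08). Notch2 had -4.83 (SE 0.32, adjusted p = 3.09e-08), Notch3 -5.25 (SE 0.58, adjusted p = 4.62e-06), Lfng -6.38 (SE 0.40, adjusted p = 1.92e-08) and Jag1 -1.97 (SE 0.46, adjusted p = 0.00245). These 5 of 9 tested members were all lower, where 27.1% of 11105 genes passed downward and 28.7% upward, so that a passing gene is common in this comparison. Dll1 (0.28, SE 0.55, adjusted p = 0.692), Dll3 (1.54, SE 0.87, adjusted p = 0.149), Mfng (0.21, SE 0.33, adjusted p = 0.616) and Rbpj (-0.36, SE 0.21, adjusted p = 0.165) did not pass. Dll1 was 34.3 (E12.5), 16.4 and 17.6 (E14.5), 9.67 (E15.5), 4.84 (E16.5) and 5.40 (E18.5) in neuron-gated cells, against 11.7, 6.78, 36.4, 2.47, 5.10 and 39.9 in apical-gated cells. Without E18.5 it was higher in neuron-gated cells (1.01, adjusted p = 0.0412), and so was Dll3 (3.17, adjusted p = 0.00247).

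**Figure D5:**
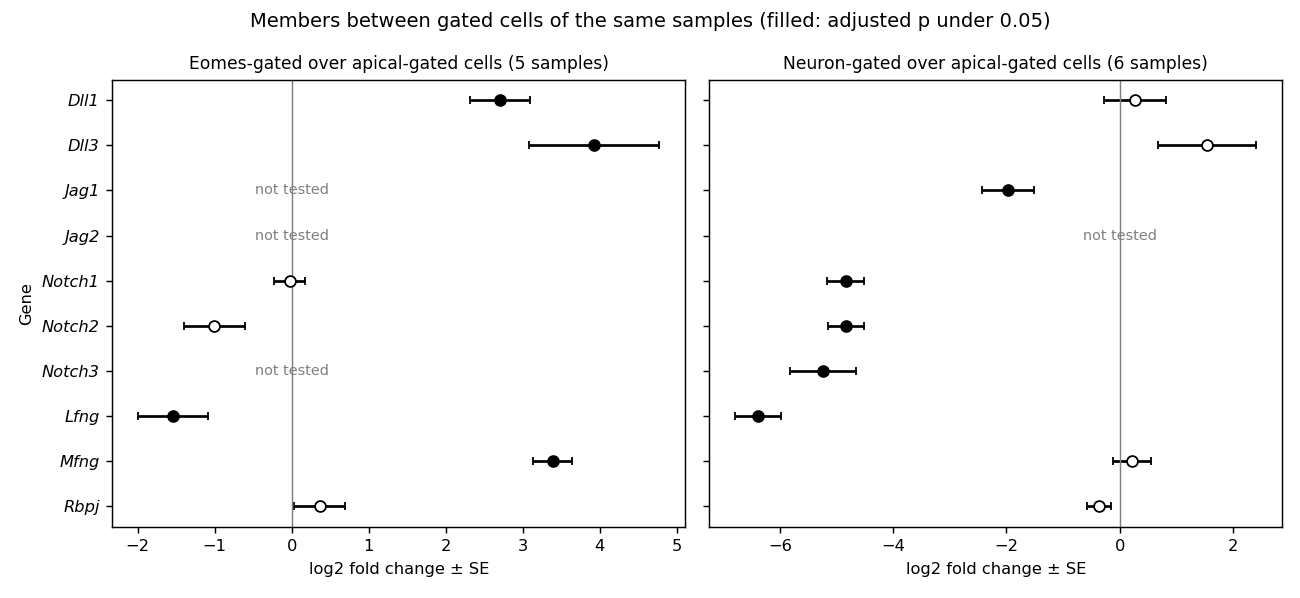
Log2 fold changes with SE of the 10 genes between Eomes-gated and apical-gated cells (left, 5 samples) and between neuron-gated and apical-gated cells (right, 6 samples). Filled points had an adjusted p under 0.05 in edgeR. Mfng, Dll3 and Dll1 lie right of 0 on the left, and Lfng and the 3 receptors left of 0 on the right.

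Whether single cells with Dll1 also carried receptor, target or other ligand transcripts was asked within samples, after each cell had been thinned to 1000 UMIs. Over progenitors and label 0, 185 of 5116 thinned cells in 6 samples had a Dll1 UMI. Hes1, a Notch target, was found in 14.1% of cells with Dll1 and in 22.8% of the other cells, and its log2 odds ratio was below 0 in 6 of 6 samples (mean -0.68, SD 0.54), with 0 of 5 cells with Dll1 at both E15.5 and E18.5. Hes5, another target, did not share that direction: it was found in 39.5% of cells with Dll1 and in 36.9% of the others, and its log2 odds ratio was above 0 in 4 of 6 samples (mean 0.96, SD 1.24, exact p = 0.188). Neurog2, a proneural factor, was found in 29.2% of cells with Dll1 and in 14% of the others (mean log2 odds ratio 1.85, SD 0.54), above 0 in 6 of 6 samples. The exact two-sided sign-flip p was 0.03125 for Neurog2, the smallest that 6 samples allow. It was 0.0833 after Benjamini-Hochberg adjustment over the 8 genes, so that Neurog2 did not pass. With 6 samples an adjusted p under 0.05 needs most of the 8 genes to reach that smallest p together. The test could thus hardly have passed, and no conclusion is drawn from it. Hes1 is given no test, since its ratios at E15.5 (-0.83) and E18.5 (-0.058) took their size from the 0.5 added to each table. With 1 added instead, the mean log2 odds ratio of Hes1 was -0.32. Dll3 was found in 7.03% of cells with Dll1 and in 2.66% of the others. It was seen together with Dll1 in 4 of 6 samples, and since its odds ratios at E15.5 and E18.5, with 0 of 5 cells, were above 0 only through the 0.5 added to each table, no test is given for it. Notch1 was found in 11 of 185 cells with Dll1 (5.95%) and in 8.34% of the others, with a mean log2 odds ratio of 0.22 (SD 2.1, exact p = 0.719) that varied between 0 of 32 cells at E10.5 and 2 of 5 at E15.5 and, at E18.5, rested on 0 of 5 cells. Notch2 was in 0 of the 185, which allows a share of up to 1.62% of cells with a UMI. In the other cells its share was low as well, at 2.23% (110 cells). As a level of background, Hes1 was in 0.530% of projection neurons at the same thinned depth (1.31% unthinned, median 2362 UMIs per cell), against 37.9% of apical progenitors (57.8% unthinned, median 2108). Dll1 itself was in 8.48% of thinned intermediate progenitors and 2.09% of thinned apical progenitors (16.8% and 4.5% unthinned) and in 0 of 121 thinned mesenchymal-like cells, which allows a share of up to 2.48%.

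Within apical progenitors alone the relation of Dll1 to Hes1 was not seen in the same direction in every sample. There, 56 of 2544 thinned cells in 4 samples had Dll1, and the log2 odds ratio with Hes1 was below 0 in 2 of 4 samples (mean -0.37, SD 0.87). With Hes5 it was above 0 in 4 of 4 (1.15, SD 0.86), and with Neurog2 in 4 of 4 (2.23, SD 1.49). Neurog2 was found together with Dll1 in only 6 cells, so that its ratios rest on few cells. These were 1 of 25 cells with Dll1 (E10.5), 3 of 16 (E12.5), 1 of 10 (E14.5 sample 1) and 1 of 5 (E18.5). Dll3 was found together with Dll1 in 2 cells and Mfng in 5, each in 2 of the 4 samples, too few for an odds ratio per sample. With 4 samples the smallest exact p is 0.125, so that the threshold could not be reached. Within intermediate progenitors alone, a population added after the data were seen, Hes1 was found in 10.8% of 83 cells with Dll1 and in 11% of the others. Mfng was in 22.9% of the cells with Dll1 and 25.4% of the others there (log2 odds ratio above 0 in 1 of 4 samples, mean -0.29), and Dll3 in 10.8% and 7.38% (above 0 in 3 of 4, mean 1.13, with -1.58 at E12.5). Neurog2 was in 51.8% of the cells with Dll1 and 50.6% of the others there. Its log2 odds ratio was above 0 in 3 of 4 samples (mean 0.61, with -0.28 at E12.5). The counts of cells with Dll1 were small, with 5 in each of E15.5 and E18.5 over all these classes together.

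The genes whose levels were most like those of a member were sought by Pearson correlation of log2 levels over 70 sums of label and sample, among 7326 genes. The sums share libraries and stages, and r is given as a description. Dll1 was most like Gadd45g (r = 0.81), Mfng (0.74), Hes6 (0.73) and Dll3 (0.69), and Dll3 most like Myt1 (0.79) and Gadd45g (0.78). Mfng was most like Btbd17 (0.80), Gadd45g (0.78) and Eomes (0.78). Notch2 and Lfng named each other (0.90), Notch2 after Plce1 (0.90). Notch1 was most like Nrarp (0.90), a target and inhibitor of Notch, and Zfp36l1 (0.89). Rbpj had no close match, with Dhrs4 at 0.63. The levels of Notch3, Jag1 and Jag2 were below the mean of 20 CPM needed.

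Of 46 other Notch pathway genes, some passed on stage in each comparison except the slopes of intermediate progenitors. In apical progenitors 2 of 31 tested rose, where 6.39% of all genes did, and none fell: Maml2, a co-activator of the RBPJ complex (slope 0.39, SE 0.06, adjusted p = 0.00288), and Dner, a Notch-related membrane protein of neurons (0.40, SE 0.11, adjusted p = 0.0345). In intermediate progenitors 0 of 19 passed, where 1.42% of all genes did; there Hes6, an antagonist of Hes1, had -0.18 (SE 0.05, adjusted p = 0.0778). In label 0, 2 of 26 fell, where 0.599% of all genes did, Dner (-0.66, SE 0.08, adjusted p = 0.000533) and Hey1, a Notch target (-0.60, SE 0.11, adjusted p = 0.00696). In projection neurons 3 of 33 rose (Fbxw7, Dlk2 and Dtx4), where 2.05% of all genes did, and 1 fell, where 1.03% did (Hey1, -0.59, SE 0.11, adjusted p = 0.0131). The difference of slopes between intermediate and apical progenitors passed for 2 of 32, where 0.807% of all genes passed: the target Hes5 (-0.31, SE 0.06, adjusted p = 0.00825) and Hes6 (-0.25, SE 0.05, adjusted p = 0.0137).

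Between gates, some targets were lower in Eomes-gated cells. In Eomes-gated over apical-gated cells, 6 of 26 tested pathway genes passed, 3 higher and 3 lower, where 10.4% of all genes passed. Hes1 (-1.46, SE 0.22, adjusted p = 0.000145), Nrarp (-1.02, SE 0.25, adjusted p = 0.0123) and Fbxw7, a ligase that degrades the Notch fragment (-0.91, SE 0.23, adjusted p = 0.0140), were lower. Hes6 (2.55, SE 0.24, adjusted p = 4.99e-07), Maml3 (1.79, SE 0.37, adjusted p = 0.00317) and Dner (1.63, SE 0.39, adjusted p = 0.0102) were higher. Hes5, another target, had -0.31 (SE 0.21, adjusted p = 0.395). In neuron-gated over apical-gated cells, all 5 tested targets were lower (Hes1, Nrarp, Hes5, Hey1 and Hey2), where 27.1% of all genes were, with -6.79 for Hes1 (SE 0.26, adjusted p = 3.35e-10) and -6.44 for Hes5 (SE 0.36, adjusted p = 7.48e-09), while Hes6 had 0.32 (SE 0.16, adjusted p = 0.113). The median log2 fold change over these 6 genes, Hes6 included, was -4.34, against 0.04 over all tested genes.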

How the data were processed

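The authors deposited UMI counts as whole numbers, in a single matrix (21862 genes, 10261 cells), together with gene symbols and with the library and cluster of each cell. Per the labels' protocols, cells were dissociated with papain and captured by Drop-seq (protocol 3.1) and processed with Drop-seq tools 3.1. The submitters' processing notes name Seurat 3.1.5 and the mm10 genome. The sources used here do not give the aligner, the annotation or the use of strand in counting, so reads of overlapping or antisense genes cannot be told apart. Tested on the values, the fewest genes in a cell were 501 and the highest mitochondrial share was 10.00%. Libraries were matched to samples by name, 1 library of E14.5 by inference. A library that the E16.5 label lists was carried by no cell.

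The members and gene lists were chosen with earlier results of these data known. The rule for named genes was all 10 members in every comparison, and other pathway genes as counts per list, with up to 4 called genes named. Erythroid cells (13, over 2% haemoglobin UMIs) were set aside. Doublets were called with Scrublet per library (89 cells, 0.867%) and left out only in an alternative. Labels were named from marker lists and compared without a test. Counts were summed per class or gate and sample with at least 20 cells, and fitted in R 4.3.3 with the edgeR package, version 4.0.16 (TMM, filterByExpr, quasi-likelihood F-test, two-sided, Benjamini-Hochberg over all tested genes, threshold 0.05). Genes that define a gate were left out of gate tests. Where the Poisson limit set p, the SE was derived from p. The fits were tested on simulated data. For co-detection, cells were thinned to 1000 UMIs, which 1782 of 10248 cells did not reach, with 0.5 added per table entry, in samples with at least 5 Dll1 cells. Likeness used log2(CPM + 10). Alternatives were DESeq2 1.42.0, size factors, no count filter, cell filters, stage rank, leaving out each sample, label or library, and gates.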

Additional observations from a re-analysis of the deposited data

Results flagged for a closer look

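The stage slope of Dll1 differed between intermediate and apical progenitors by -0.38 per day (log2 scale, adjusted p = 0.0395), and that of Dll3 by -0.62 (adjusted p = 0.00893), in edgeR's test of the difference itself. Dll1 was 421 CPM at E10.5 and 26.5 (3 UMIs) at E18.5 in intermediate progenitors, and 33.0 at E10.5 and 36.3 at E18.5 in apical progenitors. Label 12, led by Olig1, Tnc and Olig2, made up 83.4% of the apical progenitors at E18.5, and without it the differences were -0.26 for Dll1 (adjusted p = 0.289) and -0.20 for Dll3 (adjusted p = 0.762). The stage slopes of no other pair of classes were compared, and no group had the 4 samples needed to test for outlying samples.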

How the results depend on the processing

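Gate and class contrasts were paired within samples by a sample block; sample numbers link no samples across stages, so that slopes within 1 class were not paired. Counts below are of members past the threshold. In the slopes of apical progenitors (0 called) DESeq2 gave 2, and no low count filter, cells of at least 1000 UMIs, the rank of stage and leaving out label 12 gave 1 each (0 to 2 with a sample out). In intermediate progenitors (1 called) DESeq2, DESeq2's size factors, cells of at least 1000 UMIs, 1 barcode per family and the rank of stage gave 2 each, no filter gave 3, and at most 5% mitochondrial UMIs, Eomes-gated cells and label 4 alone gave 0 (0 to 2 with a sample out). In label 0 (2 called) the mitochondrial limit gave 0 (1 to 2 with a sample out). In projection neurons (0 called) neuron-gated cells gave 2, Dll1 (-0.49, adjusted p = 0.00917) and Mfng (-0.60, adjusted p = 0.00712), and 0 to 0 with a sample out. The difference of slopes (2 called) gave 0 with the mitochondrial limit and without label 12, and 1 without doublets, without 1 inferred E14.5 library and with label 4 alone (0 to 2 with a sample out). Eomes-gated over apical-gated cells (4 called) gave 2 with no replicate block (3 to 3 with a sample out), and neuron-gated over apical-gated cells 5 (5 to 7 with a sample out). Co-detection gave 0 throughout. Its test could hardly have passed with 6 samples and could not have with fewer, as within apical progenitors or with a contributing sample out. No conclusion on stability is drawn from it. Label 4 alone, leaving out label 12 in the difference of slopes, 1 barcode per family and the E14.5 library were settings chosen after the data were seen. Causes were not tested.

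By more than their error, the sign turned round, with neither the reported value nor the one of opposite sign past the threshold, for the apical slopes of Dll1 (0.21 without E10.5, 0.25 without label 6; lowest -0.34), Jag1 (0.016 and 0.013) and Rbpj (-0.011 without E10.5; highest 0.18), and for the intermediate progenitor slope of Notch1 (-0.15 to 0.018 with a sample out, 0.037 in Eomes-gated cells, 0.036 in label 4 alone). It also did for Rbpj in projection neurons (-0.15 to 0.043), the difference of slopes of Jag1 (-0.28 to 0.36), and, in neuron-gated over apical-gated cells, Dll1 (-0.28 to 1.01) and Mfng (-0.13 with no replicate block). Smaller moves also turned signs of uncalled values, among them Rbpj in intermediate progenitors (-0.27 with the mitochondrial limit), Notch1 between Eomes and apical gates (0.075 without E15.5) and Dll1 with Notch1 (-0.42 without E15.5, and 0.70 within apical progenitors at a deeper thinning). Over all genes, calls with the main settings and the lowest and highest count under alternatives were 781 (273 to 1384) for apical and 78 (10 to 268) for intermediate progenitors, 107 (42 to 319) for label 0, 299 (110 to 684) for projection neurons, 69 (20 to 196) for the difference of slopes, 756 (130 to 1100) for Eomes-gated and 6189 (4716 to 6748) for neuron-gated cells. With 1 sample at most stages and 104 to 1720 UMIs per member, differences of low genes were often not detectable.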

Other observations

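Of the family genes outside the 10, Rfng, the remaining fringe, was spread over the classes, with 28.2 ± 14.7 CPM in intermediate progenitors and 26.7 ± 10.5 in apical progenitors (SD, n = 7 each), and 78.2 ± 42.4 in interneurons (n = 7). In neuron-gated over apical-gated cells its log2 fold change was 1.24 (SE 0.19, adjusted p = 9.03e-05 in edgeR's quasi-likelihood test, 6 samples), where Lfng had -6.38. Notch4, a receptor best known from vessels, was lower in neuron-gated cells (-2.38, SE 0.49, adjusted p = 0.00101).

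Neurog1, a proneural factor, fell with stage in intermediate progenitors (-0.64 per day, SE 0.08, adjusted p = 0.00194), where it was 349 CPM at E10.5, 208 (E12.5), 107 and 60.5 (E14.5), 30.6 (E15.5), 38.0 (E16.5) and 0 (E18.5), which allows up to 26.5. Neurog2, a related factor, had 0.04 (SE 0.06, adjusted p = 0.821) in the same cells. Hes5, a Notch target, was 365 (E10.5), 1018 (E12.5), 1125 and 1629 (E14.5), 195 (E15.5), 304 (E16.5) and 79.6 (E18.5) in intermediate progenitors, with a slope of -0.31 (SE 0.18, adjusted p = 0.462).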
